A study of Saccharomyces cerevisiae with 40 samples.

Results

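The response of yeast without the transcription factor Yap1 to arsenite (AsIII) was set against that of the parent strain, gene by gene, as the mean log2 ratio of AsIII-treated to untreated RNA on the 2 Yap1-Null arrays minus the mean of the same ratio on the 4 Parent arrays. These 6 arrays are among 40 in the series and among 20 of the same kind, 2-colour Agilent oligonucleotide arrays on which 5598 genes could be named. Yap1-Null is the yap1Δ strain, taken from a commercial deletion collection as a single strain, and Parent is the BY4741 strain that it was made from, a haploid of mating type a. Both carry deletions of HIS3, LEU2, MET17 (called met15 in the strain's genotype) and URA3, so neither strain can build methionine from sulfate. Cultures grew in synthetic complete medium and were divided, and 1 part of each received 100 μM NaAsO2 for 2 h. On array 1 of Yap1-Null and arrays 1 and 3 of Parent the treated RNA carried the dye Cy5, and on array 2 of Yap1-Null and arrays 2 and 4 of Parent it carried Cy3. Another 2 arrays compared untreated Yap1-Null with untreated Parent cells, also with exchanged dyes. Set beside them are Cad1-Null, Rpn4-Null and Arr1-Null, single strains of the same background and collection without CAD1, RPN4 or ARR1, on 2 AsIII arrays each at the same dose and time, and 4 cDNA arrays of AsIII-treated against untreated Parent cells. All values below are log2 ratios unless a fold change is named, so that 1 stands for a 2-fold change, and they carry no information on how abundant an RNA was.

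YAP1 itself bore out the strain labels. On the untreated arrays YAP1 stood at -4.05 and -4.66 in Yap1-Null relative to Parent, while with AsIII it stood at 0.03 and 0.14 on the Yap1-Null arrays and at 2.16, 2.09, 2.30 and 2.30 on the Parent arrays. It rose 4.64-fold in Parent cells, and in Yap1-Null cells its ratio lay near 0. Since the arrays give ratios and no levels, the mating type and the other deletions could not be checked in this way.

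Yap1 is a basic leucine zipper factor that shuttles out of the nucleus in unstressed cells and gathers there when oxidants or thiol-binding compounds modify its cysteines. Its best known targets make and recycle thioredoxin and glutathione, reduce peroxides, aldehydes and quinones, and carry drugs and metal conjugates across membranes. AsIII binds thiols, including those of glutathione, and a related factor, Arr1, drives the genes for the arsenate reductase Arr2 and the AsIII exporter Arr3. Cad1 is the family member most like Yap1 in its DNA-binding part.

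Without Yap1, 412 of 5598 genes (7.36%) had a lower AsIII response than in Parent cells and 302 (5.39%) a higher one (714 in all, 12.8%), in limma's test with Benjamini-Hochberg adjustment over all genes at an adjusted p under 0.05. The 2 directions differed in size. A difference of 2-fold or more was reached by 184 lower genes (3.29%) and 25 higher ones (0.447%), and 1 of 4-fold or more by 60 lower genes and 1 higher gene. Both Yap1-Null arrays lay below all 4 Parent arrays for 357 of the 412 and above all 4 for 246 of the 302, against 11.1% and 17.4% of all genes tested. Over all genes the median difference was 0.07. The fit gave every gene the same standard error of 0.21, so the test worked as a limit on size, and the smallest difference that passed was 0.57. Taken alone, the 3 arrays that had treated RNA in Cy5 gave 260 lower and 91 higher genes, and the 3 that had it in Cy3 gave 210 and 45. Leaving out Parent array 2 left 127 lower and 5 higher genes, and leaving out Yap1-Null array 1 gave 763 and 878. Of the 184 genes at least 2-fold lower, 124 passed whichever of the 6 arrays was left out, as did 5 of the 25 higher by that much. No label says that arrays of a strain came from separate cultures, so these tests measure the spread between array pairs, which may be technical. Leaving out 1 array also leaves its dye-swapped pair with 1 dye, so the balance of dyes changes. Without Parent array 2 the fit no longer gave every gene the same standard error (prior degrees of freedom of 4.10, not infinite). A call lost in such a fit is therefore not a trait of the gene or the array alone.

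Most genes that moved in Parent cells moved the same way in Yap1-Null cells. In Yap1-Null cells 1710 genes rose (30.5%) and 2016 fell (36%), and in Parent cells 1940 rose (34.7%) and 2393 fell (42.7%). Both strains shared 1499 of the rises and 1792 of the falls. Among the 412 genes with a lower response, 278 had risen in Parent cells. Of these 278, 78 also rose in Yap1-Null cells, 122 passed in neither direction there and 78 fell. A further 79 of the 412 fell in Parent cells and 55 passed in neither direction. The plot of the AsIII response in the strains shows most genes along the line of equal response and the Yap1-linked enzymes far below it.

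**Figure D1:**
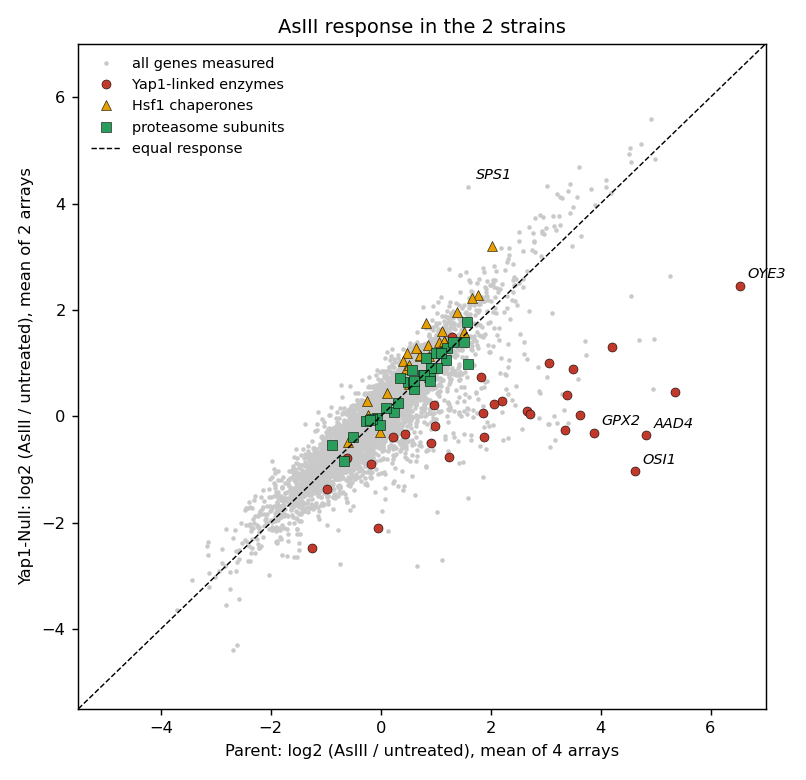
AsIII response of each gene in Yap1-Null (vertical, mean of 2 arrays) against Parent (horizontal, mean of 4 arrays), both as log2 of treated over untreated. Red circles are the enzymes linked to Yap1, yellow triangles the Hsf1 chaperones and green squares proteasome subunits; OSI1, AAD4, GPX2 and OYE3 lie far below the line of equal response and SPS1 above it.

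Thioredoxin and glutathione enzymes rose for 2 of 12 genes in Yap1-Null and 11 of 12 in Parent cells. This list, like the others, was drawn up with earlier results of these data known. Of the 12 measured members 11 were lower in Yap1-Null cells (91.7%, against 7.36% of all genes) and 0 higher, 7 of them whichever array was left out. The median difference was -1.96, from a median of 0.05 in Yap1-Null and 1.87 in Parent cells. GPX2, a glutathione peroxidase, read -0.36 and -0.25 on the Yap1-Null arrays and 3.81, 3.83, 4.04 and 3.86 on the Parent arrays, a difference of -4.19 or 18.3-fold. The Yap1-Null values lay more than 4 below every Parent value, and the highest adjusted p over the 6 fits that left out an array was 0.00242. TRX2, a cytosolic thioredoxin, read 0.36 and -0.17 in Yap1-Null and 2.75, 2.68, 2.85 and 2.38 in Parent cells (difference -2.57). TRR1, the thioredoxin reductase that recharges it, read -0.11 and 0.18 in Yap1-Null and 2.51, 2.85, 2.63 and 2.91 in Parent cells (difference -2.69). Neither gene had a Yap1-Null array near the Parent arrays.

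Peroxiredoxins reduce peroxides at the expense of thioredoxin. Those in this list, TSA1, PRX1 and AHP1, were lower without Yap1, with a difference of -0.77 for AHP1. TSA1, the main cytosolic one, read -0.62 and -0.16 on the Yap1-Null arrays and 1.66, 2.05, 1.68 and 2.14 on the Parent arrays, a difference of -2.27. SRX1, the sulfiredoxin that repairs overoxidised peroxiredoxin, read 0.63 and 1.98 on the Yap1-Null arrays and 3.75, 4.64, 3.82 and 4.59 on the Parent arrays, and its difference of -2.90 came with a gap of more than 1 between its Yap1-Null arrays. TSA2, a stress-inducible relative of TSA1 that is not in this list, read -2.36 and -3.05 on the Yap1-Null arrays and 1.17, 0.89, 1.40 and 0.98 on the Parent arrays. It thus fell in Yap1-Null cells and rose in Parent cells, and the difference was -3.82. CCP1, the mitochondrial cytochrome c peroxidase, and GTT2, a glutathione transferase, were lower, with differences of -1.99 and -1.93. GLR1, the glutathione reductase, and PRX1, the mitochondrial peroxiredoxin, had differences of -1.79 and -1.41 and lost their calls without Parent array 2, at adjusted p of 0.128 and 0.0589. MXR1, the methionine sulfoxide reductase, was the 1 member that did not pass and rose in both strains, at 1.45 and 1.52 in Yap1-Null and 1.32, 1.07, 1.53 and 1.28 in Parent cells. Its difference of 0.18 had a 95% interval from -0.23 to 0.60, and its arrays overlapped. Over a wider list of the thioredoxin system, 7 of 13 genes were lower (53.8%, against 7.36% of all genes) and 0 higher, 5 of them whichever array was left out. DOT5, a further peroxiredoxin, did not pass (95% interval from -0.41 to 0.42).

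Among 26 genes of glutathione synthesis, use and breakdown, 8 were lower (30.8%) and 2 higher (7.69%), against 7.36% and 5.39% of all genes. Their median difference was -0.21, and 4 of the 8 were lower whichever array was left out. GRX2, the main glutaredoxin, read -0.92 and -1.84 on the Yap1-Null arrays and 0.59, 0.16, 0.91 and -0.02 on the Parent arrays (difference -1.79). The Yap1-Null values were all below the Parent values, and in both strains the arrays with treated RNA in Cy3 read lower. ECM4, a glutathione transferase of the omega class that stands among the Yap1-linked genes of other role, read -2.82 and -2.79 in Yap1-Null and 0.40, 0.71, 0.60 and 0.91 in Parent cells, with a difference of -3.46 and a highest adjusted p of 0.00398. GSH1, which makes the first intermediate of glutathione, differed by -0.73, a call that was lost when any 1 of the 4 Parent arrays was left out, at adjusted p up to 0.217.

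Of 18 measured genes listed as Yap1-linked reductases and dehydrogenases 16 were lower (88.9%, against 7.36% of all genes) and 0 higher, 10 of them whichever array was left out. The median difference was -2.06, from medians of -0.22 in Yap1-Null and 2.56 in Parent cells. OSI1, a gene named for its induction by oxidants, read -0.50 and -1.56 on the Yap1-Null arrays and 4.88, 4.34, 4.98 and 4.32 on the Parent arrays. That difference of -5.66 (50.5-fold) was the largest of any gene. AAD4, of the aryl-alcohol dehydrogenase family, read -0.35 and -0.35 on the Yap1-Null arrays and 4.78, 4.73, 4.97 and 4.84 on the Parent arrays, a difference of -5.18. Members of that family are closely alike in sequence, so probes may read several of them.

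OYE3, an NADPH-dependent old yellow enzyme, rose in both strains. It read 2.14 and 2.77 on the Yap1-Null arrays and 6.36, 6.64, 6.52 and 6.64 on the Parent arrays, of which arrays 2 and 4 stood at the 100-fold limit of the files, so the difference of -4.09 is a lower bound on its size. It was also low before AsIII, at -1.91 and -1.67 in untreated Yap1-Null relative to Parent cells. GRE2, a methylglyoxal reductase, read 0.89 and 0.87 in Yap1-Null and 3.54, 3.19, 3.77 and 3.47 in Parent cells (difference -2.61), so it too rose in both strains. The other old yellow enzyme, OYE2, differed by -2.06. Quinone and alcohol reductase genes of less known substrate were lower as well, with differences of -2.99 for YML131W, -2.07 for YNL134C and -3.61 for YLR460C. ADH6, an NADPH-dependent alcohol dehydrogenase, and YCR102C had differences of -1.10 and -1.83 and lost their calls without Parent array 2, at adjusted p of 0.123 and 0.0901. YDL124W and ZTA1 were the members of the list that did not pass, with differences of -0.17 and -0.39.

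**Figure D2:**
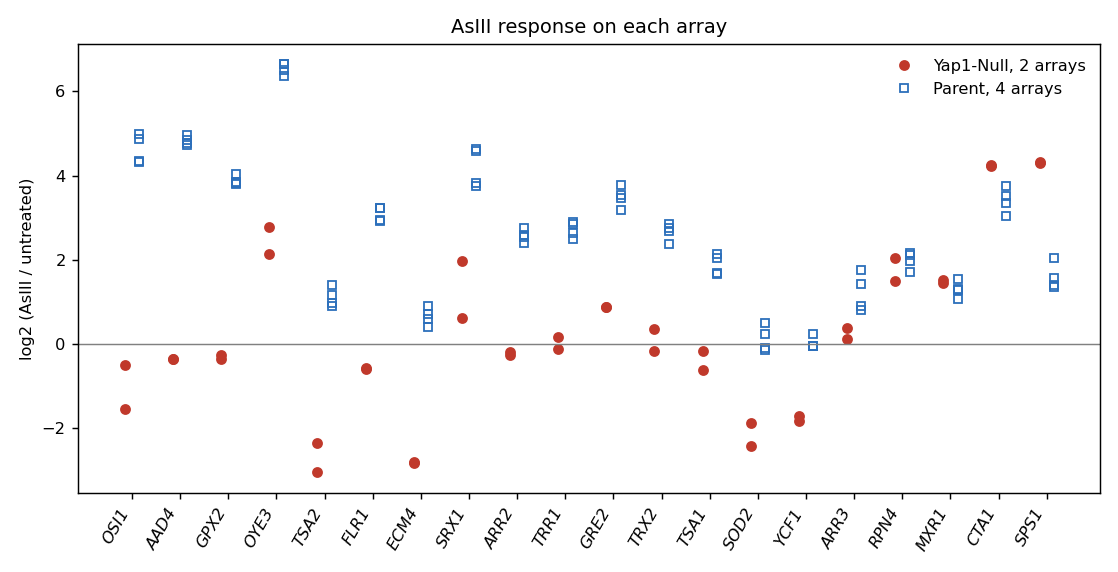
Log2 of AsIII-treated over untreated RNA on each array for 20 genes, with the 2 Yap1-Null arrays as filled red circles left of the 4 Parent arrays as open blue squares. The values of the thioredoxin, glutathione and reductase genes at the left do not overlap between the strains, while those of RPN4 and MXR1 do.

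A list of 5 genes held superoxide dismutases, catalases and CCS1, a copper chaperone gene. Of the 5, 4 were lower (80%) and 1 higher (20%), against 7.36% and 5.39% of all genes. Of the 4 lower genes, 3 passed whichever array was left out. CCS1 was among the 4, with a difference of -1.03. SOD2, the mitochondrial superoxide dismutase, read -1.88 and -2.43 on the Yap1-Null arrays and 0.25, -0.09, 0.49 and -0.14 on the Parent arrays, so it fell without Yap1, while in Parent cells it passed in neither direction (difference -2.28). SOD1, the copper-zinc enzyme of the cytosol, read -1.76 and -1.34 in Yap1-Null and -0.18, 0.31, -0.22 and 0.39 in Parent cells (difference -1.62). CTT1, the cytosolic catalase, read -0.71 and -0.96 in Yap1-Null and 0.70, 0.43, 0.95 and 0.50 in Parent cells (difference -1.48). The arrays of the strains did not overlap for any of these 3 genes. CTA1, the peroxisomal catalase, was the exception, at 4.22 and 4.24 in Yap1-Null and 3.34, 3.03, 3.74 and 3.52 in Parent cells, and thus higher by 0.82. That call was lost when any 1 of the 4 Parent arrays was left out, at adjusted p up to 0.178.

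Of the genes that handle arsenic itself, 4 of 5 were lower (80%, against 7.36% of all genes) and 0 higher, 2 of them whichever array was left out. ARR2, the arsenate reductase, read -0.27 and -0.19 on the Yap1-Null arrays and 2.40, 2.60, 2.53 and 2.75 on the Parent arrays, a difference of -2.80 (6.97-fold). The Yap1-Null values were slightly below 0 and all Parent values above 2. ARR3, the AsIII exporter of the plasma membrane, read 0.13 and 0.38 in Yap1-Null and 0.90, 1.43, 0.81 and 1.76 in Parent cells, with a smaller difference of -0.97 whose call was lost without Parent array 2 and without Parent array 4, at adjusted p up to 0.174. YCF1, the vacuolar pump for glutathione conjugates, read -1.84 and -1.71 in Yap1-Null and -0.05, -0.05, -0.04 and 0.25 in Parent cells (difference -1.80). It fell in Yap1-Null cells and passed in neither direction in Parent cells. FPS1, the glycerol channel through which AsIII enters, differed by 0.32 and did not pass. ARR1 itself read -1.16 and -1.30 on the Yap1-Null arrays and -0.49, -0.77, -0.31 and -0.54 on the Parent arrays, and the call on its difference of -0.70 was lost when any 1 of the 4 Parent arrays was left out, at adjusted p up to 0.262.

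Among 11 transporter genes linked to Yap1 the median difference was 0.12. Of the 11, 5 were lower (45.5%) and 2 higher (18.2%), against 7.36% and 5.39% of all genes. Of the 5 and 2 transporter genes, 3 and 0 passed whichever array was left out. FLR1, a fluconazole exporter, read -0.59 and -0.57 on the Yap1-Null arrays and 3.23, 2.92, 3.22 and 2.94 on the Parent arrays, a difference of -3.66, and the Yap1-Null values were below 0. SNQ2, a pump of the ABC type, differed by -1.11. ATR1, an aminotriazole exporter, differed by -1.45 and lost its call without Parent array 2, at an adjusted p of 0.055. TPO4, a polyamine exporter, was 1 of the 2 higher, by 1.02, and lost its call without Parent array 2 and without Parent array 3, at adjusted p up to 0.0724.

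Among 12 genes of the Yap family and its partners 4 were lower (33.3%, against 7.36% of all genes) and 0 higher. Of the 4 YAP1 alone differed by 2-fold or more, and it alone passed whichever array was left out. CAD1 read -0.77 and -0.92 on the Yap1-Null arrays and -0.72, -1.05, -0.69 and -1.11 on the Parent arrays, a difference of 0.05 that did not pass (95% interval from -0.36 to 0.46). HYR1, the peroxidase that oxidises Yap1, and YBP1, its partner, had differences of -0.12 and -0.03, neither of which passed. Among 18 stress and proteasome regulators 4 were lower (22.2%) and 1 higher, of which 1 and 0 passed whichever array was left out. MSN2, a factor of the general stress response, read 0.19 and -0.11 in Yap1-Null and 1.75, 1.27, 1.88 and 1.41 in Parent cells, a difference of -1.54, and was the 1 gene that passed in all these fits. Its partner MSN4 differed by -0.29, which did not pass. RPN4, the activator of proteasome genes, read 2.05 and 1.49 in Yap1-Null and 1.97, 1.72, 2.17 and 2.11 in Parent cells, and rose in both. Its difference of -0.22 did not pass, with a 95% interval from -0.63 to 0.19 and with overlapping arrays.

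Some genes of iron and iron-sulfur handling were lower. ISU2, a scaffold on which iron-sulfur clusters are built, read 0.04 and 0.89 on the Yap1-Null arrays and 2.47, 2.99, 2.58 and 3.46 on the Parent arrays (difference -2.41). MRS4, an iron carrier of the inner mitochondrial membrane, read -1.68 and -1.27 in Yap1-Null and 0.25, 0.86, 0.37 and 0.98 in Parent cells (difference -2.09), so it moved in opposite directions in the strains. Both sets of arrays were well apart. The whole list of 26 iron genes controlled by Aft1 had a median difference of -0.18 beside 0.07 for all genes. Of the 26, 4 were lower (15.4%) and 1 higher (3.85%), against 7.36% and 5.39% of all genes. Of the 4 and 1, 2 and 0 passed whichever array was left out. CYT2, which attaches heme to cytochrome c1, and MDH1, the mitochondrial malate dehydrogenase, differed by -1.34 and -2.01.

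The 12 genes that the study itself singled out for lost induction were all lower, with a median difference of -2.21, and since they were chosen on these arrays the count is no independent evidence. They include TRR1, GLR1, AAD4, GRE2, FLR1 and ATR1 of the thioredoxin, reductase and transporter lists. The counts of those lists are thus no independent evidence either. Of the 12, 8 passed whichever array was left out. Of 10 genes of other or little known role linked to Yap1, some of them also among the 12, 9 were lower, and all 9 passed whichever array was left out. FRM2 and HBN1 code for nitroreductase-like proteins and lie side by side. FRM2 read 0.50 and 0.52 in Yap1-Null and 2.09, 2.13, 2.33 and 2.56 in Parent cells (difference -1.77). HBN1 read 2.09 and 2.43 in Yap1-Null and 4.71, 4.29, 4.84 and 4.35 in Parent cells (difference -2.28). Both rose in Yap1-Null cells, by less than in Parent cells.

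A set of 78 genes rose in Parent cells and fell in Yap1-Null cells, with the difference past the threshold. Their leaders were OSI1, TSA2, FLR1, the serine deaminase-like gene SDL1 (-3.61), ECM4 and, chosen after their values were seen, YLR297W (-3.12), YDL218W (-3.00) and YMR090W (-2.82). YLR297W read -1.27 and -1.81 on the Yap1-Null arrays and 1.55, 1.48, 1.71 and 1.59 on the Parent arrays, which did not overlap. The reverse case, a fall in Parent and a rise in Yap1-Null cells, was seen for 8 genes.

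Some genes with large differences belong to families of near-identical copies. IMA2, an isomaltase, read -0.37 and 0.12 on the Yap1-Null arrays and 3.09, 2.99, 3.30 and 3.41 on the Parent arrays, a difference of -3.32. The related genes IMA3 and IMA4, chosen after their values were seen, differed by -3.20 and -3.19, and the thiamine synthesis genes THI11 and THI13, chosen in the same way, by -2.91 and -2.45. Probes cannot be assumed to tell such copies apart, so each family may be a single signal. SDL1 is in the same position, since a neighbouring reading frame belongs to the same disrupted gene.

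Many genes with a lower response lay next to each other. Among the 412, 407 had a place in chromosome order among measured genes, and 57.2% of these (233 genes) had a measured immediate neighbour that was also lower, against 12.8% (716 of 5577) of all genes. At least 2-fold lower genes had such a neighbour in 50.6% of cases (91 of 180), against 5.90% of all genes. For genes with a higher response the shares were 27.2% (82 of 302) and 10.3%. These shares are descriptions of the calls and carry no test.

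Several neighbours of Yap1-linked genes rose in Parent cells and are described here for that reason. Others fell there, such as PPN1, a polyphosphatase gene beside TSA2, and YKR075C beside ECM4, with Parent means of -0.68 and -2.58. COX10, a heme A synthesis gene beside OYE3, read 0.62 and 0.42 on the Yap1-Null arrays and 4.99, 4.65, 5.32 and 4.85 on the Parent arrays, a difference of -4.43, and MRPL40, a mitochondrial ribosomal protein gene on its other side, differed by -2.37. DCP1, an mRNA decapping subunit beside GRE2, read 1.37 and 1.48 in Yap1-Null and 4.68, 4.49, 4.81 and 4.79 in Parent cells. YOX1, a repressor of cell cycle genes beside TSA1, read 1.55 and 1.36 in Yap1-Null and 5.26, 4.97, 5.49 and 4.13 in Parent cells. COX10, DCP1 and YOX1 also rose in Yap1-Null cells, by less, with no overlap of the arrays.

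Further runs of neighbours were lower together. HOT13, a mitochondrial intermembrane space gene, stands with CYT2, SRX1 and MDH1 in a run of 4 that were all lower, with a difference of -2.64 for HOT13. PAM17, an import motor subunit, and GPT2, a glycerol phosphate acyltransferase, lie on each side of CCP1 and differed by -2.87 and -2.29. MSA2, a cell cycle regulator beside ECM4, differed by -3.15, and RPB8, a subunit shared by the nuclear RNA polymerases, which lies close to ISU2, by -2.88. TRP4, a tryptophan synthesis enzyme beside TRR1, differed by -2.52, with -0.72 and -0.49 on the Yap1-Null arrays and 1.86, 1.94, 1.89 and 1.97 on the Parent arrays, although the amino acid synthesis genes of Gcn4 as a list had 2 of 34 lower and a median of 0.32. YKL070W, which stands in the reductase list though its role is not known, and YKL069W, a methionine sulfoxide reductase, follow OSI1 with differences of -4.91 and -1.87. Apart from TRP4 and the genes of the lists, these neighbours were chosen after their values were seen. The arrays read 1 or a few short probes per gene and hold nothing on where a transcript starts or ends, so whether a neighbour had a transcript of its own was not tested.

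**Figure D3:**
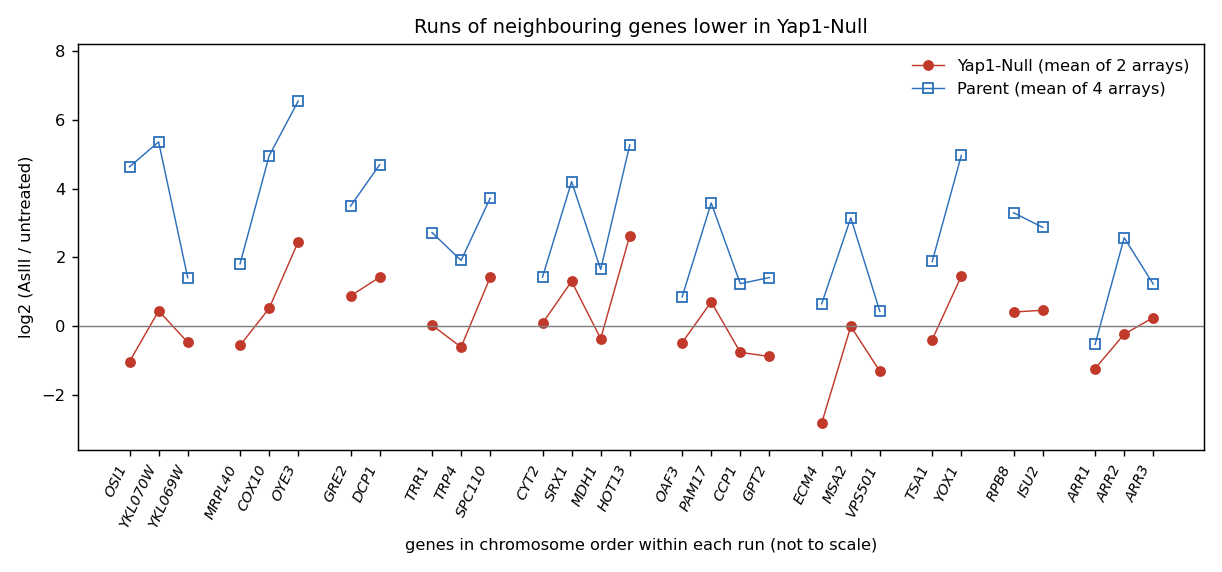
Log2 of AsIII-treated over untreated RNA for 29 genes in 10 runs of neighbouring genes, in chromosome order within each run and not to scale. Filled red circles are Yap1-Null (mean of 2 arrays) and open blue squares Parent (mean of 4 arrays); the Yap1-Null value lies below the Parent value for every gene shown.

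Counts in other pathways stood on both sides of the 7.36% lower and 5.39% higher among all genes. Proteasome subunits had medians of 0.69 in Yap1-Null and 0.61 in Parent cells, and 1 of 32 was lower and 0 higher. The list of cytosolic ribosomal protein genes was taken by gene name and so also holds RPP1, a subunit of RNase P. This list had medians of 0.56 in Yap1-Null and 0.50 in Parent cells, with 1 of 136 lower and 0 higher. That 1 was RPL10, which lies by FMP25 among the lower genes, at -0.24 and 0.21 on the Yap1-Null arrays and 1.33, 1.73, 1.54 and 2.10 on the Parent arrays (difference -1.69), and without Parent array 2 it did not pass, at an adjusted p of 0.0564. FMP25, a mitochondrial gene, differed by -3.53. Ribosome biogenesis genes had 2 lower and 2 higher of 40, and the stress genes under Msn2 and Msn4 had 5 lower and 4 higher of 30, with 24 falling in Yap1-Null and 23 in Parent cells. Whichever array was left out, 0 ribosome biogenesis genes passed in either direction, and of the stress genes 1 lower and 0 higher. HSP31, a methylglyoxalase, was among the lower ones at -1.48 and lost its call without Parent array 2, at an adjusted p of 0.084.

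Heat-shock chaperones controlled by Hsf1 leaned the other way, with 5 of 26 higher and 0 lower and a median difference of 0.44 from medians of 1.17 in Yap1-Null and 0.77 in Parent cells. BTN2, a protein that gathers misfolded proteins, read 3.47 and 2.95 on the Yap1-Null arrays and 1.99, 1.99, 2.03 and 2.10 on the Parent arrays, a difference of 1.18 that passed whichever array was left out. It was the 1 of the 5 to do so, and it started lower without Yap1, at -0.99 and -1.10 on the untreated arrays. HSP82, an Hsp90 gene, was higher by 0.91, a call that was lost without Parent array 1, 2 or 3, at adjusted p up to 0.119. Before AsIII the chaperone genes had a median of -0.33 in Yap1-Null relative to Parent cells, and under AsIII, as the sum of both differences, a median of 0.14 with 0 of 26 higher or lower. A similar lean was seen against the same Parent arrays in Cad1-Null cells (median 0.29, 3 higher) and Rpn4-Null cells (median 0.33), but Arr1-Null cells had a median of -0.42. Yap1-Null minus Cad1-Null had a median of 0.07 with 2 higher.

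The sulfate and methionine pathway genes had medians of 0.51 in Yap1-Null and 0.38 in Parent cells, with 2 of 30 lower and 6 higher. Each of these 8 calls was lost in at least 1 of the fits that left out an array. Against the same Parent arrays Cad1-Null cells had 0 lower and 7 higher and a median of 0.30, and Yap1-Null minus Cad1-Null had a median of -0.08 with 4 lower and 0 higher. SAM2, an S-adenosylmethionine synthetase, was the highest of them, at 1.15 and 1.38 in Yap1-Null and 0.16, 0.05, 0.13 and 0.45 in Parent cells, a difference of 1.06 with an adjusted p of 0.0691 without Parent array 2. MET3, the sulfate-activating enzyme, and MET16, a later enzyme of the same pathway, had differences of -0.06 and 0.40 that did not pass. Ribonucleotide reductase genes did not move together. RNR1, a large subunit, was higher by 1.11 and RNR2, a small subunit, lower with a difference of -1.05, and both calls were lost without Parent array 2, at adjusted p of 0.132 and 0.13. RNR3 and RNR4 had differences of -0.15 and -0.24 that did not pass.

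**Figure D4:**
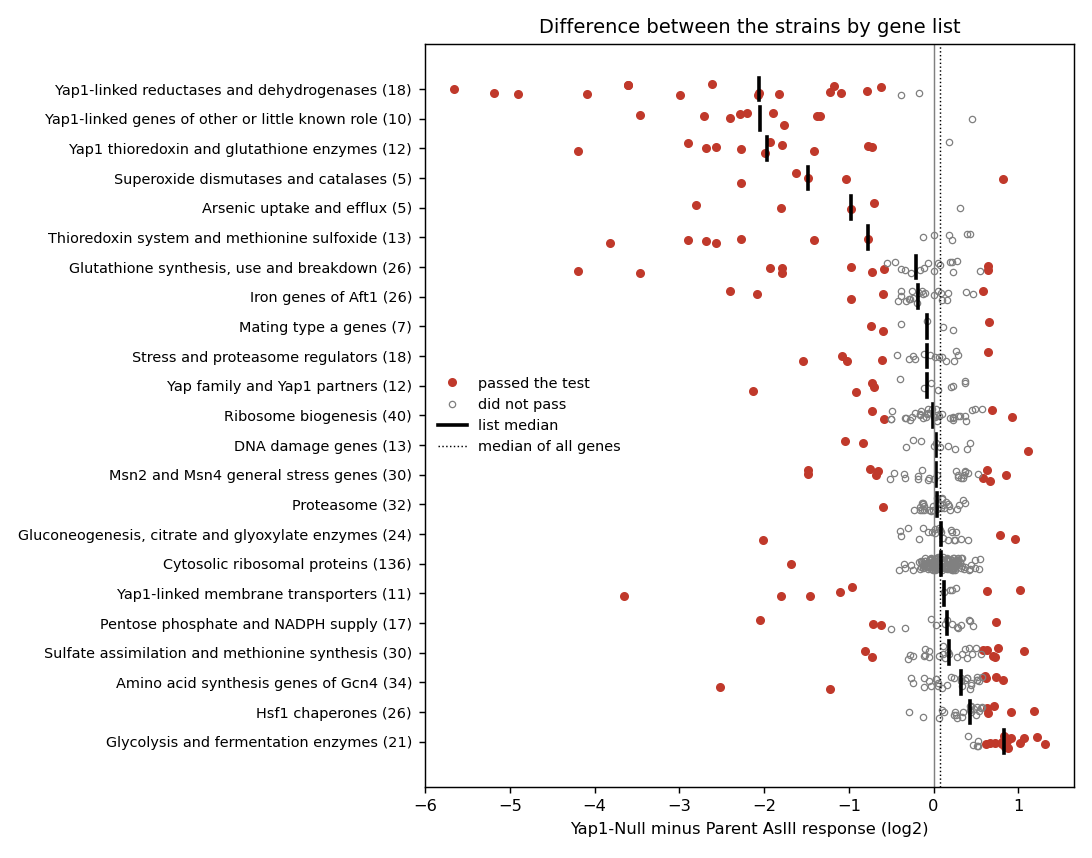
Yap1-Null minus Parent AsIII response (log2) of each member of 23 gene lists, the number of measured members in brackets, with filled red points for genes past the test and open grey points for the rest. Thick bars are list medians and the dotted line is the median of all genes, 0.07; the Yap1-linked enzyme lists centre near -2 and glycolysis near 0.8.

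Genes with a higher response were led by SPS1, a sporulation kinase, which read 4.31 and 4.33 on the Yap1-Null arrays and 1.57, 1.41, 2.05 and 1.36 on the Parent arrays, a difference of 2.72 (6.6-fold). It rose in both strains, and the Yap1-Null values lay more than 2 above every Parent value. PFF1, a vacuolar membrane protease, read 2.36 and 3.19 in Yap1-Null and 0.97, 1.46, 1.03 and 1.52 in Parent cells, a difference of 1.53. The nudix hydrolase gene PCD1 and MSI1, a chromatin assembly subunit, were higher by 1.22 and 1.29. With BTN2 these are the 5 genes that were higher whichever array was left out.

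Glycolytic enzymes fell less without Yap1. This list was drawn up after the values had been seen. Of 21 genes 16 were higher (76.2%) and 0 lower, against 5.39% and 7.36% of all genes. All 21 differences were above 0, with a median of 0.83 from medians of -0.23 in Yap1-Null and -1.16 in Parent cells. In Yap1-Null cells 9 of the 21 fell and 5 rose, and in Parent cells 18 fell and 2 rose. FBA1, the aldolase, read 0.53 and -0.37 on the Yap1-Null arrays and -1.21, -1.34, -0.67 and -1.37 on the Parent arrays (difference 1.23). ENO2, an enolase, read 0.59 and 0.60 on the Yap1-Null arrays and -1.23, -0.69, -0.59 and -0.38 on the Parent arrays (difference 1.32). TPI1, triose phosphate isomerase, differed by 1.02. None of the 16 calls held without Parent array 2, and for FBA1, ENO2 and TPI1 the adjusted p was then 0.0533, 0.132 and 0.117. Enolase and glyceraldehyde phosphate dehydrogenase have near-identical gene copies, which probes may not tell apart. On the Cad1-Null arrays 12 of the 21 were higher than on the same Parent arrays, against 1.75% of all genes, with a median of 0.70. Against those Parent arrays the median was 1.11 in Rpn4-Null and 0.13 in Arr1-Null cells. The shift was thus not seen in Yap1-Null cells alone. Yap1-Null minus Cad1-Null had a median of 0.12 with 2 higher and 0 lower.

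Differences before AsIII rested on arrays that differed more from each other. In untreated cells 145 genes (2.59%) were higher in Yap1-Null and 72 (1.29%) lower. The 2 untreated arrays, which have exchanged dyes, correlated at -0.48 across genes after both were turned to Yap1-Null over Parent, had the same sign for 1688 of 5598 genes and a median gap of 0.51, against 0.33 between the 2 Yap1-Null AsIII arrays. The orientation is fixed by YAP1, which is far below 0 on both. Without untreated array 1 the counts were 829 higher and 651 lower, and without untreated array 2 they were 1077 and 1212. Of the 412 genes with a lower response 21 were lower and 37 higher before AsIII, and of the 302 with a higher response 17 were lower and 0 higher.

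GPX2 stood at -1.05 and -1.14 on the untreated arrays, YML131W at -1.15 and -1.15 and FRM2 at -1.51 and -1.80, so these Yap1-linked genes were already low without AsIII. Among the genes higher before AsIII was ALD6, a cytosolic aldehyde dehydrogenase that supplies NADPH, at 1.97 and 1.24. It then fell further in Yap1-Null cells, to -2.57 and -3.01 on the AsIII arrays, against -0.66, -0.97, -0.61 and -0.72 in Parent cells, and under AsIII its level differed by -0.44, which did not pass. RCK1, a protein kinase, showed the same order, at 2.06 and 2.15 untreated, and with AsIII at -4.30 and -4.48 in Yap1-Null and -2.87, -3.25, -2.39 and -2.25 in Parent cells. For both genes the lower ratio with AsIII went with a higher level before it, and both also had lower AsIII ratios in Cad1-Null than in Parent cells, with differences of -1.19 and -1.33. Ribosomal protein genes had a median of 0.49 on the untreated arrays. Of these genes 55 of 136 were higher and 0 lower, against 2.59% and 1.29% of all genes. They rest on the same 2 untreated arrays, which correlated at -0.48.

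Adding the untreated difference to the AsIII difference gives Yap1-Null relative to Parent under AsIII. On that measure 267 genes (4.77%) were lower and 82 (1.46%) higher. Of the 412 genes with a lower response 255 were also lower under AsIII, 231 of them with no call before AsIII, and of the 302 with a higher response 57 were higher. The measure contains the AsIII difference itself. Its overlap with those calls, also for the genes named below, is therefore in part built in and no independent evidence. Leaving out Parent array 2 gave 82 lower and 1 higher, and leaving out untreated array 2 gave 648 and 623. OYE3 had the lowest such value, at -5.88, followed by AAD4 at -5.66, OSI1 at -5.42 and GPX2 at -5.29. All thioredoxin and glutathione enzymes but MXR1, which stood at -0.02, were lower under AsIII. The plot of the differences before and during AsIII shows that most genes with a large AsIII difference lay near 0 before it.

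**Figure D5:**
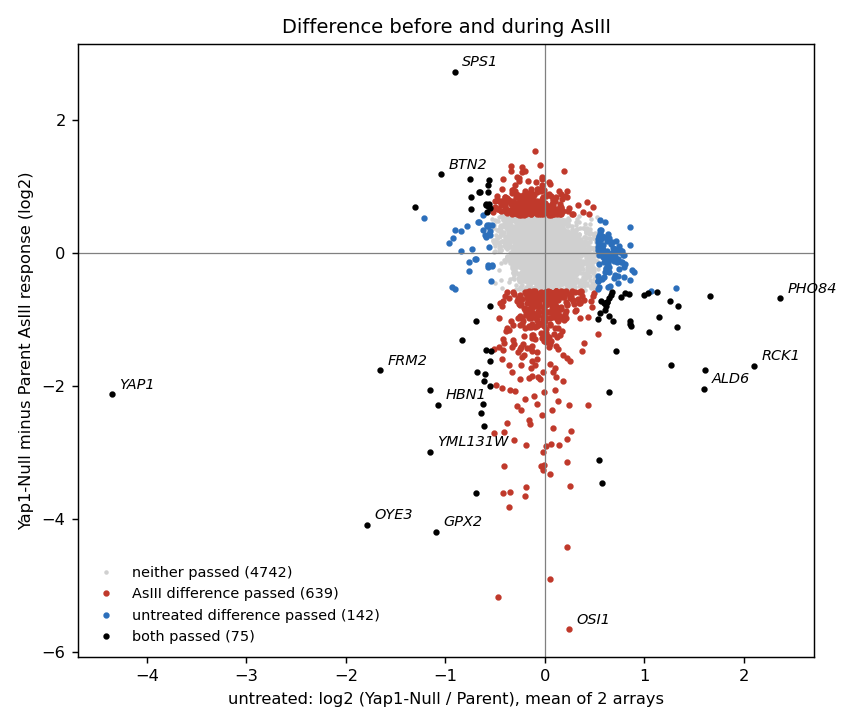
Yap1-Null minus Parent AsIII response (vertical, log2) against untreated Yap1-Null over Parent (horizontal, log2, mean of 2 arrays) for 5598 genes. Red points passed for the AsIII difference (639), blue for the untreated difference (142), black for both (75) and grey for neither (4742); OYE3, GPX2 and YML131W lie low on both axes, and ALD6 and RCK1 at the lower right.

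Cells without Cad1, the closest relative of Yap1, were measured in the same way on 2 arrays. Directly against Cad1-Null, a difference that uses the Parent arrays for its error alone, 322 genes (5.75%) had a lower response in Yap1-Null cells and 166 (2.97%) a higher one. Without Yap1-Null array 1 these counts were 506 and 420, and without Cad1-Null array 2 they were 378 and 250. Set against the same Parent arrays, Cad1-Null cells had 139 genes lower (2.48%) and 98 higher (1.75%), and over the 184 genes at least 2-fold lower in Yap1-Null than in Parent cells the median Cad1-Null difference was 0.04, with 14 lower and 8 higher. OSI1, for which the Cad1-Null difference was 0.05, AAD4 (0.07) and GPX2 (0.16) had no call between Cad1-Null and Parent, with Yap1-Null minus Cad1-Null differences of -5.71, -5.26 and -4.35. FRM2 was higher in Cad1-Null cells, by 1.40. SPS1, the gene with the largest gain, was higher in Cad1-Null cells as well, by 2.38, and its Yap1-Null minus Cad1-Null difference of 0.34 did not pass. The differences of Yap1-Null from Parent and from Cad1-Null share the Yap1-Null arrays, so they are given side by side.

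Cells without Rpn4 or Arr1, which differed from Parent for 39% and 54.1% of all genes, share the Parent arrays as well. Of the 184 genes, 79 were lower in Rpn4-Null and 81 in Arr1-Null cells, against 17.7% and 25.5% of all genes, and 12 and 36 were higher, against 21.3% and 28.6%. GPX2 stood at -1.48 in Rpn4-Null and -0.57 in Arr1-Null cells relative to Parent, OSI1 at -0.94 and 0.69, and ARR2 at 1.03 and -1.01. Since these contrasts subtract the same 4 arrays, the counts are given side by side and are no measure of likeness.

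The series also holds 4 cDNA arrays of Parent cells at the same dose and time, which read poly(A) RNA where the Agilent arrays read total RNA. On them, 131 of 180 genes that were at least 2-fold lower in Yap1-Null cells were above 0 on all 4 arrays (72.8%). The share was 27.1% for all genes on both platforms. At least 2-fold up on all 4 were 84 of the 180, and 360 of all 5513 genes on both platforms. GPX2 averaged 3.74 there, TRX2 3.49, ARR2 4.43 and OSI1 5.16, close to or above their Agilent values in Parent cells. The neighbours differed among themselves, with COX10 at 3.00 and DCP1 at 3.21 but MRPL40 at 0.11, TRP4 at -0.15 and YKL069W at -0.29. AAD4 averaged 0.32 on the cDNA arrays. Of 228 genes at least 2-fold down on all 4 cDNA arrays, 109 rose and 82 fell on the Agilent Parent arrays, with a median of 0.21. Of all genes 34.7% rose and 42.7% fell there, so the platforms differed for these genes. Starting from the 360 genes at least 2-fold up on the cDNA arrays uses no Agilent value. Of these, 124 (34.4%) were lower in Yap1-Null cells and 21 (5.83%) higher, against 7.36% and 5.39% of all genes. Of the 360, 213 rose in Yap1-Null and 286 in Parent cells, where 30.5% and 34.7% of all genes rose.

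The genes on either side of YAP1, which can respond to the deletion itself, were read as a check. MIN4 stood at 1.79 and 1.43 on the untreated arrays and, with AsIII, at -0.63 and -1.24 in Yap1-Null and 0.59, 0.87, 0.81 and 1.05 in Parent cells. GIS4 stood at 0.59 and 0.01 untreated and, with AsIII, at 0.07 and -0.94 in Yap1-Null and 0.52, 0.31, 0.74 and 0.19 in Parent cells. MIN4 was thus high before AsIII and lower in response, with a difference of -1.76, and the difference of -0.88 for GIS4 was lost without Yap1-Null array 2 and without Parent array 1, 2 or 3, at adjusted p up to 0.234. Whether these shifts come from the change at the neighbouring locus was not tested.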

How the data were processed

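Total RNA of each strain was labelled directly and hybridised to Agilent yeast 60-mer arrays in dye-swapped pairs, and the authors extracted the ratios with Agilent's software at mostly default settings. The deposited Agilent values are log10 ratios per probe, limited to 2 in either direction (100-fold), and were multiplied by the log2 of 10 here. The deposited cDNA values are log2 ratios, whose normalization is not given in the sources used here. Every array was turned so that the tested RNA is the numerator. Of 10807 Agilent probes 9202 had 1 gene symbol, and probes of a gene were averaged, giving 5598 genes, named through RefSeq.

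Arrays of a dye-swapped pair were averaged to 1 replicate, Parent arrays as 1 with 2 and 3 with 4, which is an assumption. limma 3.58.1 in R 4.3.3 was fitted to 10 replicates in 9 conditions, with Benjamini-Hochberg adjustment over all genes at 0.05. Only 1 residual degree of freedom was left, from the Parent pairs, and the prior degrees of freedom were infinite, so all genes shared an SD of 0.17. Array number limits the precision. The code of the fit was tested on simulated data.

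Members and lists were chosen with earlier results of these data known. Named genes were list members, genes the study names, the 15 largest called differences in each direction with non-overlapping arrays, the 10 largest in each direction for the untreated comparison and the level under AsIII, and the genes beside YAP1; others are marked as chosen after their values were seen. The alternatives were single arrays as replicates, blocks, single dyes, another Parent pairing, robust moderation, the study's cut-offs applied to limma's p, other summaries of probes and each array left out. Python 3.11.15, numpy 2.4.6, pandas 2.3.3 and matplotlib 3.10.9 were used.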

Additional observations from a re-analysis of the deposited data

Results flagged for a closer look

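The AsIII response differed between the strains for 412 genes that were lower and 302 that were higher in Yap1-Null than in Parent cells, tested as the difference itself in limma. Of the genes named above, 23 passed in opposite directions in the strains. All but ENO2 fell in Yap1-Null and rose in Parent cells. Among the thiol and detoxification genes the Yap1-Null minus Parent differences were -5.66 for OSI1, -3.82 for TSA2, -3.66 for FLR1, -3.46 for ECM4, -2.27 for TSA1, -1.99 for CCP1, -1.79 for GRX2, -1.48 for CTT1, -1.48 for HSP31, -1.41 for PRX1, -1.87 for YKL069W and -1.11 for SNQ2. For genes of metabolism and mitochondria they were -3.61 for SDL1, -2.52 for TRP4, -2.37 for MRPL40, -2.29 for GPT2 and -2.09 for MRS4. Genes whose role is not given here had -3.12 for YLR297W, -3.00 for YDL218W and -2.82 for YMR090W, and the neighbours of YAP1 had -1.76 for MIN4 and -0.88 for GIS4. ENO2 went the other way, with a difference of 1.32.

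A single Parent array stood apart from the other 3 for 4 named genes, by the gap to its nearest neighbour over the whole range. The arrays that stood apart read 3.59 for FMP25, 2.80 for IMA4, 3.19 for THI13 and 0.25 for YCF1. Chance gives about 1 such case in 20 genes, so 4 of 102 is no more than that.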

How the results depend on the processing

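Of the 85 named genes that passed between Yap1-Null and Parent, 62 passed under every alternative and 22 lost their call when an array was left out. None changed direction. The counts were less stable. The lower and higher AsIII differences (412 and 302) became 259 and 166 with each array as a replicate, 210 and 45 on Cy3 arrays alone, 260 and 91 on Cy5 arrays alone and 184 and 25 at the study's threshold of an unadjusted p under 0.001 with 2-fold. The study's cut-offs were applied to limma's p, where the study used its own error model on each ratio experiment. With 1 error for all genes they gave the same counts as the main test with the 2-fold rule. Higher differences numbered 619 with Parent arrays paired 1 with 4 and 2 with 3, 525 with robust moderation and 756 with dye as a block. Leaving out arrays gave 127 to 763 lower and 5 to 878 higher. Array numbers are shared between the strains, and same-numbered arrays deviated together across genes (r of 0.60 for number 1 and 0.49 for number 2), but so did arrays of the same dye and another number (0.70 for Yap1-Null 1 with Parent 3 and 0.68 for Yap1-Null 2 with Parent 4), and nothing ties a number to a culture. A replicate block for array number gave 711 higher genes, untreated counts of 136 lower and 228 higher, 305 higher levels under AsIII and 397 higher against Cad1-Null.

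At the study's threshold 649 genes rose and 764 fell in Yap1-Null and 644 and 775 in Parent cells. Untreated differences (72 lower, 145 higher) became 25 and 50 with each array as a replicate, 161 and 242 with the dye block, 122 and 232 with robust moderation, 10 and 15 at the study's threshold and 1107 and 946 on the Cy5 array alone, with 240 higher on the Cy3 array alone and 651 to 1212 lower and 829 to 1077 higher with an array left out. Levels under AsIII (267 lower, 82 higher) became 174 and 31 with each array as a replicate, 173 and 136 on Cy3 and 520 and 435 on Cy5 arrays, with 289 higher for the dye block, 177 for the other pairing, 179 for robust moderation and 25 at the study's threshold, and with 82 to 648 lower and 1 to 623 higher with an array left out. Against Cad1-Null (322 lower, 166 higher) there were 80 higher with each array as a replicate, 375 for the dye block, 308 for the other pairing, 270 for robust moderation, 178 lower and 21 higher on Cy3 arrays, 45 higher on Cy5 arrays and 195 and 51 at the study's threshold, with 378 to 506 lower and 250 to 420 higher with an array left out.

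List medians moved as follows. On Cy3 arrays alone they were -1.86 for Yap1-linked genes of other role, -1.22 for arsenic genes, -1.19 for the thioredoxin system and 0.25 for Hsf1 chaperones. On Cy5 arrays alone they were -0.76 for arsenic genes, -0.34 for the thioredoxin system, 0.21 for Msn2 and Msn4 genes and -0.072 for Aft1 genes. With an array left out, the ranges were -2.32 to -1.77 for thioredoxin and glutathione enzymes, -1.21 to -0.76 for arsenic genes, -0.31 to -0.0083 for the Yap family, -1.50 to -1.37 for dismutases and catalases, -0.32 to -0.15 for glutathione genes, -1.14 to -0.47 for the thioredoxin system, 0.13 to 0.30 for sulfate and methionine genes and -0.25 to -0.047 for Aft1 genes. Signs turned with a Yap1-Null array left out for the proteasome (-0.15 to 0.23), Msn2 and Msn4 genes (-0.23 to 0.11) and mating type a genes (-0.65 to 0.44), and the proteasome (-0.035) and mating type a genes (0.016) also turned without Parent array 3. Medians near 0 crossed it in some of these fits for transporters, stress regulators, DNA damage, ribosome biogenesis and background-deleted genes. The cause was not tested. A planned search of promoters for a Yap1 motif was not run.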
